A study of Homo sapiens with 21 samples.

Results

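The clones M1 and M2 of the breast cancer line SUM149PT, taken here as its mesenchymal clones, were compared directly, M2 against M1. The labels do not spell out the letter M, and the series title names the epithelial-mesenchymal transition, so the state of each clone is checked by marker genes below. The comparison took the 3 libraries of M1 and the 3 of M2, 6 of the 21 libraries in the series, by their labels and by no measured value. SUM149PT was derived from an inflammatory breast cancer and is labelled as lacking estrogen and progesterone receptors. Neither clone received a treatment or carries an engineered change named in the labels, and the other 5 lines (the clones E, EM1, EM2 and EM3 and the Parental line) enter below as levels only. Messenger RNA selected by its poly(A) tail was sequenced from one end. Each group is 1 clone, so every difference below is between these particular clones. Nothing says that the libraries of a clone came from separate cultures, so p-values measure only the spread between libraries, which may be technical.

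In the epithelial-mesenchymal transition, epithelial cells lose E-cadherin junctions and take up a motile state with vimentin filaments and a fibronectin-rich matrix. Transcription factors of the ZEB, SNAIL and TWIST families are known to repress epithelial genes in it. Mesenchymal cells are also a major source of collagens, matrix proteases and inflammatory cytokines, and cells called mesenchymal need not share all of these traits.

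Library totals were 37474154, 46571768 and 42373975 expected counts for M1 replicates 1, 2 and 3 and 37827843, 25039378 and 47714099 for M2. Replicate 3 of each clone stood apart in the length of the transcripts counted: its count-weighted mean effective length was 1999 bases in M1 and 1935 in M2, against 2311 to 2378 bases in the other 4 libraries. The files show this split and the labels do not name it, so replicate 3 against replicates 1 and 2 is a term in the model. In a principal component analysis of all 21 libraries, M2 scored 232.4 to 246.5 and M1 30.6 to 39.8 on the leading component, where every library of the other lines scored below 0. Levels are TPM, which count transcripts and are scaled by transcript length, and are given as mean ± SD with n = 3 libraries. Log2 folds are M2 minus M1 from the count model, so a negative fold means higher in M1, and a ratio of TPM can differ from them. The SE given with a fold was worked back from the test, as the absolute log2 fold over the square root of its F statistic. It can understate the uncertainty of the fold where a clone has few counts.

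M2 and M1 differed in a large share of the transcriptome. Of 16307 genes tested with edgeR, 6836 (41.9%) were called at a BH-adjusted p under 0.05, of which 3370 (20.7%) were higher in M2 and 3466 (21.3%) higher in M1. The median log2 fold over all genes tested was 0.03. Large differences were more often in favour of M1: among called genes with an absolute log2 fold of at least 3, 743 were higher in M2 and 1311 higher in M1. Libraries of the clones did not overlap in CPM (here counts scaled to TMM-adjusted library size) for 46.3% of genes tested, and 37.4% were both called and not overlapping. Without M1 replicate 3 the calls fell to 2111 higher in M2 and 2439 higher in M1, and without M2 replicate 3 to 2088 and 2512. Without the model term for replicate 3, 5046 genes were called (2388 higher in M2 and 2658 higher in M1). The term itself was called for 1 gene. The plot of called genes by list sets each gene list used below against these shares.

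**Figure D1:**
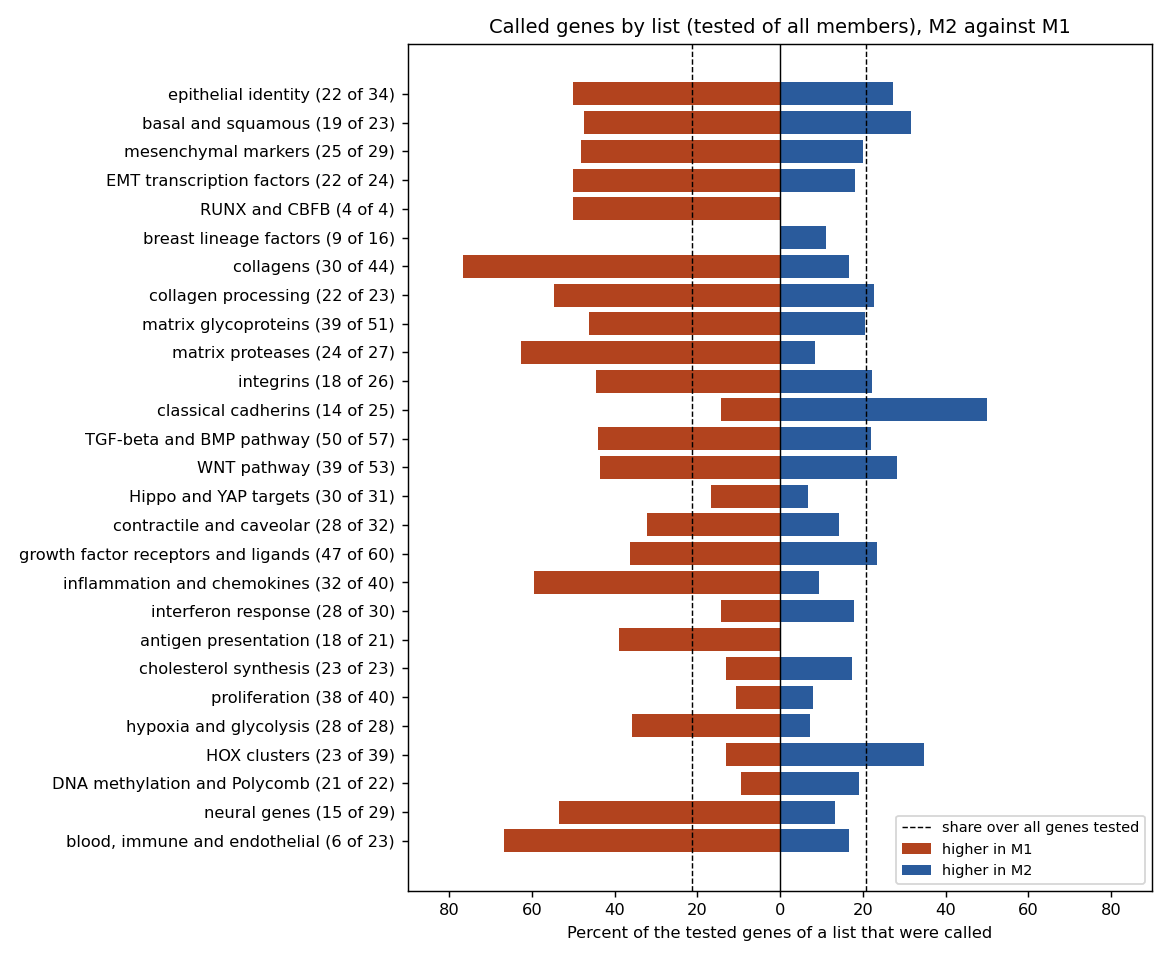
Percent of the tested genes of each list called higher in M1 (red, to the left) or higher in M2 (blue, to the right), with the shares over all genes tested as dashed lines (21.3% and 20.7%). Collagens, matrix proteases and inflammation lie mostly to the left, cadherins to the right, and proliferation and Hippo genes under both lines.

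Both clones lacked E-cadherin and kept part of the keratin network. CDH1, the E-cadherin gene, stood at 0.12, 0.07 and 0.05 TPM in M1 and 0.06, 0 and 0.1 TPM in M2, too low to be tested, against 108 ± 17.3 TPM in E. The claudin CLDN3, the crumbs gene CRB3 and the epithelial factors GRHL2, OVOL1, OVOL2 and ELF3 were likewise at or under 0.5 TPM in all 6 libraries. KRT7, a keratin of simple epithelia, was not called, with 1501, 1805 and 2118 TPM in M1 and 2336, 1286 and 1919 TPM in M2 (log2 fold 0.21, edgeR BH-adjusted p = 0.532). The M1 and M2 values overlapped, and KRT7 was of the same order as vimentin in each clone. KRT8 was not called either (362 ± 103 TPM in M1 and 525 ± 99.5 in M2), while its partner KRT18 was higher in M2 (66.3 ± 11.6 TPM in M1 and 136 ± 27.9 in M2, edgeR BH-adjusted p = 0.00349). Averaged over the 34 genes of epithelial identity, the level on the log2(TPM + 1) scale was 1.54 ± 0.08 in M1 and 1.27 ± 0.07 in M2, against 5.35 ± 0.02 in E.

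What remained of the epithelial program was not the same in each clone. Of 22 epithelial genes tested (of 34), 11 were called higher in M1 and 6 higher in M2, a share of 77.27% called against 41.9% of all genes. Genes near 0 in one clone could pass the low-count filter through the other clone alone. With a mean of at least 1 CPM as the filter, 12 were called, 6 higher in M1 and 6 higher in M2. On the M1 side were the tight junction claudin CLDN7 (22.9 ± 6.43 TPM in M1 and 0.143 ± 0.15 in M2; edgeR BH-adjusted p = 0.00017), the junctional adhesion gene F11R (2.72 ± 1.31 TPM in M1 and 0.0333 ± 0.0577 in M2), the protease inhibitor SPINT1 (5.68 ± 3.17 TPM in M1 and 0.0567 ± 0.0666 in M2), KRT19 (9.43 ± 8.65 TPM in M1 and 0.3 ± 0.46 in M2) and EPCAM (1.98 ± 1.7 TPM in M1 and 0.127 ± 0.0451 in M2). On the M2 side were the clathrin adaptor AP1M2 (0.157 ± 0.229 TPM in M1 and 3.62 ± 2.77 in M2), the plakophilin PKP3 of desmosomes (5.86 ± 0.858 TPM in M1 and 12.3 ± 2.91 in M2) and the splicing factor ESRP1. ESRP1 stood at 0.79, 0.04 and 0.22 TPM in M1 and 0.54, 5.81 and 4.4 TPM in M2, with M2 replicate 1 inside the M1 range, and its call held under 9 of 18 alternatives (edgeR BH-adjusted p = 0.0199).

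Several core mesenchymal genes were not called between the clones, and each stood above E. Vimentin (VIM), the intermediate filament protein that marks mesenchymal cells, stood at 3097, 2728 and 2168 TPM in M1 and 2434, 2407 and 1464 TPM in M2. The M2 replicates 1 and 2 lay inside the M1 range and M2 replicate 3 below it, and the difference did not pass the test (log2 fold -0.27, edgeR BH-adjusted p = 0.219). The transcription factors ZEB1 (33.3 ± 6.09 TPM in M1 and 26.7 ± 6.25 in M2), ZEB2 (17 ± 3.15 TPM in M1 and 12 ± 7.76 in M2) and SNAI2 (44 ± 5.49 TPM in M1 and 45.8 ± 5.83 in M2), the receptor tyrosine kinase AXL (112 ± 23 TPM in M1 and 94 ± 17.9 in M2), the gelatinase MMP2 (171 ± 50.8 TPM in M1 and 111 ± 6.71 in M2) and the matrix protein tenascin C (TNC, 146 ± 12.2 TPM in M1 and 146 ± 40.6 in M2) were not called. Their log2 folds ran from -0.74 to 0.29. A p that misses the threshold does not show equal levels.

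**Figure D2:**
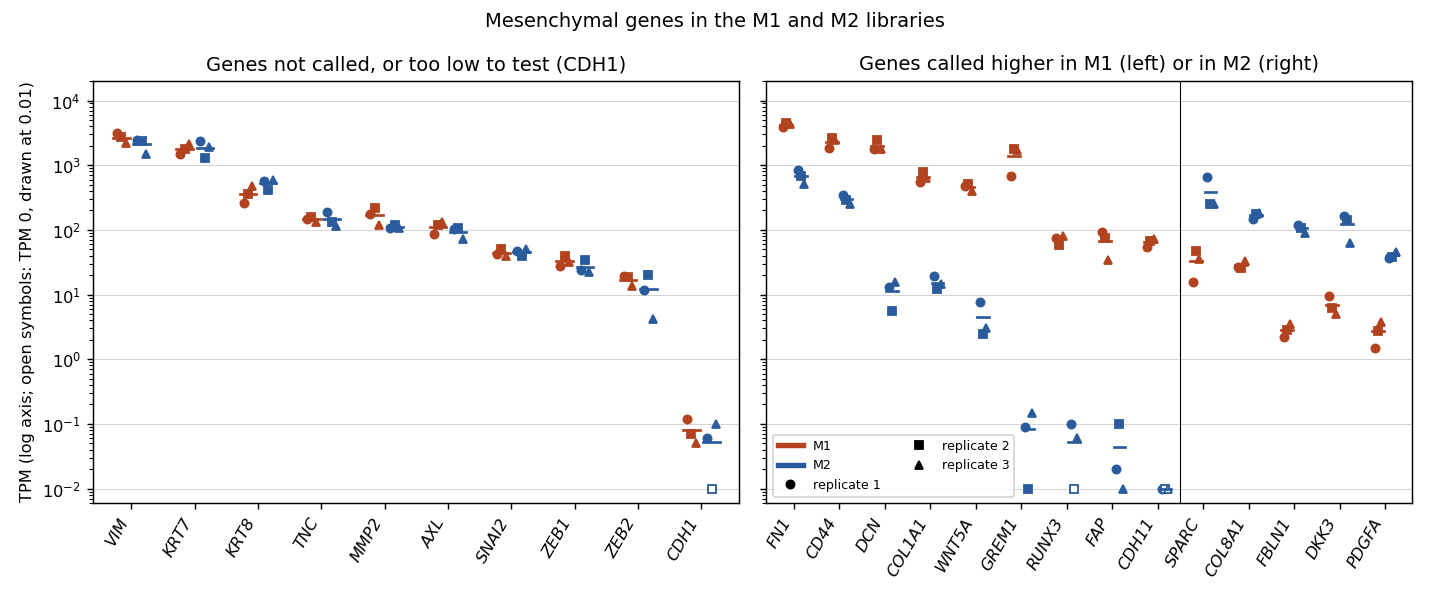
TPM on a log axis in each M1 (red) and M2 (blue) library, with symbols for replicates 1 to 3, short lines at the means and open symbols for TPM 0. On the left are genes that were not called or not tested, where the clones lie close together, and on the right genes called higher in M1, from FN1 to CDH11, or higher in M2, from SPARC to PDGFA.

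Beyond that core, the mesenchymal list split. Of 25 mesenchymal markers tested (of 29), 12 were higher in M1 and 5 higher in M2. Fibronectin (FN1), which links matrix to integrins, was 3942, 4470.0 and 4344 TPM in M1 and 839, 692 and 509.8 TPM in M2 (log2 fold -2.45 ± 0.22 SE, edgeR BH-adjusted p = 0.000282). No M2 library came near an M1 library, and M2 still lay above E (454 TPM). The hyaluronan receptor CD44 was 2303 ± 420.0 TPM in M1 and 298 ± 51.3 in M2 (log2 fold -2.79 ± 0.28 SE, edgeR BH-adjusted p = 0.000449). Fibroblast activation protein (FAP), a surface protease of activated fibroblasts, was 92.5, 74.7 and 33.8 TPM in M1 and 0.02, 0.1 and 0.01 TPM in M2 (log2 fold -11.36 ± 0.28 SE, edgeR BH-adjusted p = 9.97e-06). FAP was thus at or under 0.1 TPM in every M2 library although E held 6.71 TPM and Parental 10.5 TPM. CDH11, a cadherin of mesenchymal cells, was 54.2, 68.1 and 71.8 TPM in M1 and 0 TPM in all 3 M2 libraries. With no count in any M2 library, CDH11 was at least 4974-fold higher in M1, taking 3 counts over the M2 group as the floor. Averaged over all 29 markers, the level on the log2(TPM + 1) scale was 4.96 ± 0.15 in M1 and 3.67 ± 0.22 in M2. It was 3.37 ± 0.14 in EM2 and 2.66 ± 0.03 in E. Their summed level was 12050 to 14090 TPM in M1 and 2947 to 4990 TPM in M2. The M2 range overlapped those of EM2 (3409 to 4064 TPM) and EM3 (3517 to 4202 TPM).

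M2 was the higher clone for 5 mesenchymal markers, a share near that of all genes. SPARC, a secreted collagen-binding protein, was 15.5, 47.9 and 35.7 TPM in M1 and 668, 249.5 and 252 TPM in M2 (log2 fold 3.66 ± 0.57 SE, edgeR BH-adjusted p = 0.00258). All M2 libraries lay above all M1 libraries, and M2 replicate 1 was by far the highest. The PDGF receptors PDGFRA (0.897 ± 0.398 TPM in M1 and 8.78 ± 4.42 in M2) and PDGFRB (0.597 ± 0.1 TPM in M1 and 3.3 ± 1.25 in M2), the ecto-nucleotidase NT5E, also known as CD73 (18.3 ± 4.03 TPM in M1 and 46.4 ± 12.3 in M2), and smooth muscle actin ACTA2 (2.25 ± 0.416 TPM in M1 and 7.8 ± 1.39 in M2) were higher in M2 too.

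The EMT transcription factors divided in the same way. Of 22 tested (of 24), 11 were higher in M1 and 4 in M2. SNAI1, the founding SNAIL repressor, was 26, 16.9 and 24.1 TPM in M1 and 2.08, 0.54 and 5.77 TPM in M2 (edgeR BH-adjusted p = 0.00658). TWIST1 was 30.2 ± 23.7 TPM in M1 and 3.47 ± 2.37 in M2, and its paralog TWIST2 lay on the opposite side (20.5 ± 3.41 TPM in M1 and 31.5 ± 10.7 in M2; edgeR BH-adjusted p = 0.0354, called under 7 of 18 alternatives). The paired-related homeobox genes PRRX1 (11 ± 5.23 TPM in M1 and 0.433 ± 0.273 in M2) and PRRX2 (6.07 ± 0.928 TPM in M1 and 0.0367 ± 0.0153 in M2), the chromatin protein HMGA2 (28.4 ± 7.61 TPM in M1 and 2.33 ± 0.624 in M2) and SOX9 (6.01 ± 1.24 TPM in M1 and 0.327 ± 0.24 in M2) were higher in M1. FOXC2 (10.3 ± 1.89 TPM in M1 and 23.5 ± 7.86 in M2) and the E protein TCF3 (46 ± 6.66 TPM in M1 and 73.5 ± 1.85 in M2) were higher in M2. Averaged over the 24 factors, the level on the log2(TPM + 1) scale was 3.22 ± 0.11 in M1 and 2.3 ± 0.13 in M2. It was 2.52 ± 0.08 in EM2 and 2.06 ± 0.04 in E, so the M2 mean lay between those of E and EM2.

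RUNX genes encode the DNA-binding partners of the core-binding factor, and CBFB their shared beta subunit. RUNX3 was 74.7, 58.5 and 80.8 TPM in M1 and 0.1, 0 and 0.06 TPM in M2 (log2 fold -10.84 ± 0.43 SE, edgeR BH-adjusted p = 2.48e-05). It was at 0.1 TPM or less in every M2 library. RUNX1 (14.5 ± 5.43 TPM in M1 and 15.1 ± 8.02 in M2) and RUNX2 (8.39 ± 4.28 TPM in M1 and 5.49 ± 4.68 in M2) were not called. CBFB was 94.5 ± 7.06 TPM in M1 and 66 ± 17.4 in M2, called at an edgeR BH-adjusted p of 0.0366 and under 9 of 18 alternatives, and its libraries overlapped in CPM but not in TPM. Without M1 replicate 1, 2 or 3 or M2 replicate 3, RUNX3 alone of the 4 genes was called.

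Genes of the basal layer of breast and skin epithelium went in opposite directions. Of the basal keratins 4 of 5 tested were higher in M1. KRT17 was 57.5, 168 and 272 TPM in M1 and 0.4, 0.37 and 0.37 TPM in M2 (log2 fold -8.69 ± 0.60 SE, edgeR BH-adjusted p = 0.000109), and KRT5 was 33.2 ± 6.45 TPM in M1 and 0.363 ± 0.131 in M2. LAMB3, a laminin chain that helps anchor basal cells, was 250.4 ± 73.6 TPM in M1 and 4.84 ± 2.88 in M2, while the laminin chain LAMA3 was not called (11.4 ± 2.42 TPM in M1 and 6.55 ± 2.15 in M2). The calcium-binding protein S100A2 was 708 ± 158 TPM in M1 and 27.9 ± 22.8 in M2. Of the hemidesmosome genes 3 of 4 were higher in M2, and so was TP63, the master factor of basal cells. TP63 was 0.06, 0.07 and 0.03 TPM in M1 and 10, 12.4 and 1.43 TPM in M2 (log2 fold 7.00 ± 0.56 SE, edgeR BH-adjusted p = 0.000204), and the low M2 value was that of replicate 3. The integrin beta chain ITGB4, the core receptor of hemidesmosomes, was 2.29, 5.36 and 8.34 TPM in M1 and 9.11, 31.2 and 122 TPM in M2 (log2 fold 3.18 ± 0.55 SE, edgeR BH-adjusted p = 0.00412). M2 values of ITGB4 spread widely, and the lowest lay just above the highest M1 value. ITGA6 (41.9 ± 17.6 TPM in M1 and 85.6 ± 38.2 in M2), DST (24.3 ± 2.05 TPM in M1 and 45.3 ± 13.4 in M2), TRIM29 (1.37 ± 0.807 TPM in M1 and 11.5 ± 8.87 in M2) and the serpin SERPINB5 (26 ± 8.7 TPM in M1 and 79.4 ± 12.9 in M2) were higher in M2 as well. In all, 9 of 19 tested basal genes were higher in M1 and 6 in M2, and the summed level of the list was 1413 to 1452 TPM in M1 and 393.9 to 406.6 TPM in M2.

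Collagens, the triple-helical proteins of the matrix, had the largest share of called genes among the 27 lists, 93.33% of those tested. Of 30 genes tested (of 44), 23 were higher in M1 and 5 in M2, with a median log2 fold of -3.47 against 0.03 over all genes. All 8 fibrillar collagen genes tested were higher in M1. COL1A1, a chain of type I collagen, was 549, 789 and 641 TPM in M1 and 19, 12.1 and 14.6 TPM in M2 (log2 fold -5.86 ± 0.37 SE, edgeR BH-adjusted p = 7.52e-05). Its partner chain COL1A2 was 2.68, 3.67 and 4.81 TPM in M1 and 0.01, 0 and 0 TPM in M2, so the chains of type I collagen were far from equal in M1. COL3A1 (12.1 ± 1.59 TPM in M1 and 0.177 ± 0.101 in M2), COL5A1 (58.7 ± 24.8 TPM in M1 and 18 ± 9.59 in M2) and COL5A3 (62.9 ± 19.8 TPM in M1 and 0.127 ± 0.0289 in M2) were also higher in M1.

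Type IV collagen, the network of basement membranes, differed chain by chain. The genes COL4A1 and COL4A2, head-to-head neighbours on chromosome 13, were 194, 321 and 117 TPM in M1 and 8.25, 3.37 and 5.01 TPM in M2, and 208, 338 and 217 TPM in M1 and 15.5, 9.54 and 11.1 TPM in M2, both higher in M1 (edgeR BH-adjusted p = 0.000298 and 9.29e-05). The pair COL4A5 and COL4A6, head-to-head on chromosome X, was higher in M2. COL4A5 was 6.26, 6.41 and 3.64 TPM in M1 and 31, 31.8 and 15.5 TPM in M2, and COL4A6 was 0.9, 0.84 and 0.72 TPM in M1 and 19.2, 21.7 and 13.5 TPM in M2 (edgeR BH-adjusted p = 0.000116 and 2.67e-05). Neither pair overlapped between the clones. COL15A1, a collagen of basement membrane zones, was 109, 249 and 118 TPM in M1 and 0.02, 0.02 and 0.07 TPM in M2 (log2 fold -10.86 ± 0.60 SE, edgeR BH-adjusted p = 5.4e-05). The other collagens higher in M2 were COL8A1 of the short-chain network (28.5 ± 3.76 TPM in M1 and 169.6 ± 18.9 in M2), COL18A1, the precursor of endostatin (1.66 ± 0.201 TPM in M1 and 11.4 ± 6.31 in M2), and COL28A1 (0.0867 ± 0.0252 TPM in M1 and 3.56 ± 0.706 in M2). COL6A3 (85.9 ± 14.2 TPM in M1 and 143 ± 73.8 in M2) was not called, although its partner chains COL6A1 (148 ± 43.5 TPM in M1 and 14.9 ± 3.66 in M2) and COL6A2 (263 ± 37.9 TPM in M1 and 52.1 ± 24.5 in M2) were higher in M1. Summed over the 44 genes, collagens made up 2100 to 3540 TPM in M1, 580.2 to 718.7 TPM in M2 and 237.8 to 259.6 TPM in E.

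**Figure D3:**
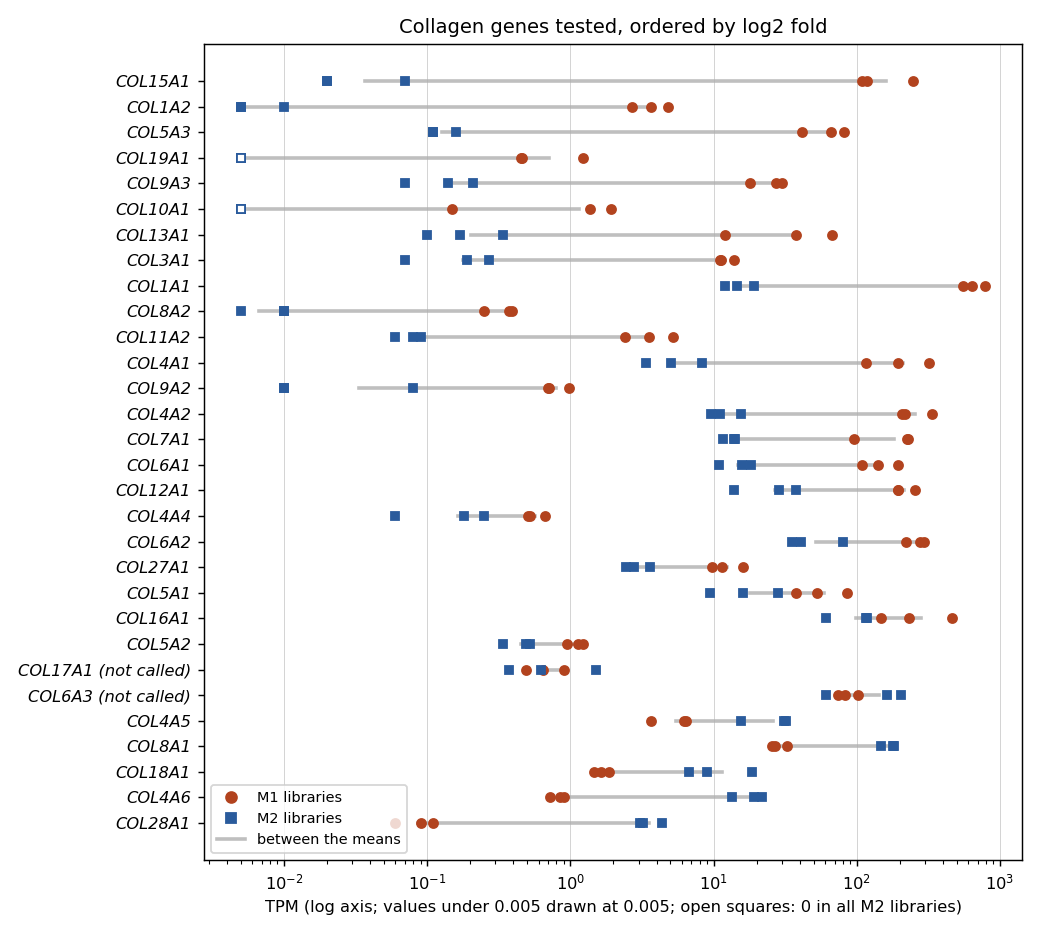
TPM on a log axis of the 30 collagen genes tested, with M1 libraries as red circles, M2 libraries as blue squares and a grey bar between the means. The 23 genes higher in M1 fill the upper rows, COL6A3 and COL17A1 were not called, and the 5 lowest rows are higher in M2.

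Enzymes that modify and cut procollagen followed in part. Of 22 tested, 12 were higher in M1 (54.55%, against 21.3% of all genes) and 5 in M2 (22.73%, near the 20.7% of all genes). The lysyl hydroxylase PLOD2, needed for stable crosslinks, was 377, 307 and 104 TPM in M1 and 16.1, 15.9 and 2.7 TPM in M2 (log2 fold -4.70 ± 0.28 SE, edgeR BH-adjusted p = 6.39e-05). The prolyl hydroxylase P4HA2 (92.4 ± 27.4 TPM in M1 and 12.8 ± 5.64 in M2) and the lysyl oxidases LOX (26.1 ± 6.83 TPM in M1 and 4.67 ± 4.66 in M2), LOXL1 (214 ± 38.4 TPM in M1 and 58.5 ± 36 in M2) and LOXL2 (84.2 ± 14.5 TPM in M1 and 36.5 ± 9.12 in M2), which crosslink collagen, were higher in M1. On the M2 side, the prolyl hydroxylase P3H2 was 0.69, 1.38 and 0.77 TPM in M1 and 111, 54.1 and 16.5 TPM in M2 (log2 fold 5.57 ± 0.60 SE, edgeR BH-adjusted p = 0.000614). The procollagen N-propeptidase ADAMTS2 was 0.0633 ± 0.0153 TPM in M1 and 8.43 ± 2.21 in M2. The collagen chaperone SERPINH1 was not called (122 ± 11.9 TPM in M1 and 98.5 ± 25.8 in M2).

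Proteoglycans and matrix glycoproteins too were called more often on the M1 side. Of 39 tested (of 51), 18 were higher in M1 (46.15%, against 21.3% of all genes) and 8 in M2 (20.51%, near the 20.7% of all genes). Decorin (DCN), a small proteoglycan on collagen fibrils, was 1752, 2443 and 1807 TPM in M1 and 13, 5.54 and 15.4 TPM in M2 (log2 fold -7.50 ± 0.40 SE, edgeR BH-adjusted p = 4.78e-05). The basement membrane linkers NID1 (46.7 ± 5.94 TPM in M1 and 0.16 ± 0.0866 in M2) and NID2 (124 ± 13.7 TPM in M1 and 0.0767 ± 0.00577 in M2), biglycan (BGN, 20.4 ± 3 TPM in M1 and 0.42 ± 0.193 in M2), fibrillin FBN1 (29.9 ± 5.19 TPM in M1 and 1.64 ± 1.09 in M2) and the laminin gamma chain LAMC1 (243 ± 28.9 TPM in M1 and 43.9 ± 1.36 in M2) were higher in M1. In M2 the fibulins stood out. FBLN1 was 2.18, 2.87 and 3.54 TPM in M1 and 117, 108 and 90.7 TPM in M2 (log2 fold 5.76 ± 0.24 SE, edgeR BH-adjusted p = 2.82e-05), and FBLN5, which organises elastic fibres, was 0.37, 0.39 and 0.1 TPM in M1 and 40.3, 23.7 and 13.6 TPM in M2 (log2 fold 7.12 ± 0.37 SE, edgeR BH-adjusted p = 4.49e-05). No library overlapped for either fibulin. Serglycin (SRGN, 19.8 ± 5.33 TPM in M1 and 161 ± 20 in M2), SPOCK1 (11.3 ± 0.866 TPM in M1 and 66.1 ± 2.73 in M2), the basement membrane proteoglycan HSPG2 (0.407 ± 0.136 TPM in M1 and 14.2 ± 6.56 in M2) and the adhesive protein TGFBI (554 ± 272 TPM in M1 and 1161 ± 307 in M2) were higher in M2. Thrombospondin THBS1, at 1064, 3411 and 4673 TPM in M1 and 1082, 170.1 and 459 TPM in M2, was not called (edgeR BH-adjusted p = 0.053), and M2 replicate 1 lay in the M1 range.

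Most protease and inhibitor genes called were higher in M1. Of 24 tested (of 27), 15 were higher in M1 and 2 in M2. Their summed level overlapped between the clones, at 2008 to 3220.0 TPM in M1 and 1553 to 2313 TPM in M2, beside 2601 to 2974 TPM in E. The collagenase MMP13 was 191, 298 and 243 TPM in M1 and 0 TPM in all 3 M2 libraries, at least 19840-fold higher in M1 at the 3-count floor (edgeR BH-adjusted p = 7.37e-05). MMP13 lies in a cluster of 9 metalloproteinase genes on chromosome 11 (hg38, 102520508 to 102955734), of which MMP1 (1.65 ± 0.871 TPM in M1 and 0 ± 0 in M2), MMP3 (1.26 ± 0.836 TPM in M1 and 0.137 ± 0.159 in M2, under 7 of 18 alternatives) and MMP8 (0.5 ± 0.14 TPM in M1 and 0 ± 0 in M2) were also higher in M1 at low levels, and the other 5 were too low to be tested. The membrane-bound collagenase MMP14, which also activates MMP2, was 59.9, 108 and 106 TPM in M1 and 0, 0.04 and 0.22 TPM in M2 (log2 fold -10.87 ± 0.67 SE, edgeR BH-adjusted p = 6.95e-05). The gelatinase MMP9 was 3.83 ± 2.07 TPM in M1 and 0 ± 0 in M2, and the inhibitor TIMP1 was 1236 ± 363 TPM in M1 and 468 ± 287 in M2. Urokinase (PLAU, 156 ± 87.1 TPM in M1 and 4.99 ± 2.68 in M2) and its receptor PLAUR (101 ± 30.6 TPM in M1 and 13.1 ± 9.24 in M2) were higher in M1. SERPINE2, a secreted inhibitor of serine proteases, was 394, 685 and 547 TPM in M1 and 3.43, 9.12 and 19.2 TPM in M2 (log2 fold -5.89 ± 0.55 SE, edgeR BH-adjusted p = 0.00037). The groups did not overlap.

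Among the integrin receptors for these proteins, 8 of 18 tested were higher in M1 and 4 in M2. These shares were 44.44% against 21.3% of all genes and 22.22% against 20.7%. ITGA1, a collagen-binding chain, was 32.5 ± 8.79 TPM in M1 and 2.54 ± 0.186 in M2, and ITGB8, which releases TGF-beta, was 4.78 ± 1.82 TPM in M1 and 0.193 ± 0.172 in M2. ITGAV (67.7 ± 22.4 TPM in M1 and 20.9 ± 8.33 in M2) and the common beta chain ITGB1 (862 ± 154 TPM in M1 and 401 ± 102 in M2) were higher in M1. ITGA10 (0.647 ± 0.264 TPM in M1 and 10.8 ± 5.7 in M2) and ITGA2 (6.73 ± 0.876 TPM in M1 and 19.1 ± 11.9 in M2), other collagen-binding chains, were higher in M2. The discoidin receptors for collagen, DDR1 (19 ± 1.99 TPM in M1 and 10.8 ± 5.13 in M2) and DDR2 (11.8 ± 4.11 TPM in M1 and 0.493 ± 0.259 in M2), were higher in M1. The fibronectin-binding chain ITGA5 was not called (136 ± 59 TPM in M1 and 128 ± 49.1 in M2).

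Cadherins, which join neighbouring cells, were more often higher in M2 than in M1. Of 14 cadherin and catenin genes tested (of 25), 7 were higher in M2 and 2 in M1. The N-cadherin gene CDH2 was present in each clone and higher in M1 (81.9 ± 7.52 TPM in M1 and 45.5 ± 14.8 in M2, edgeR BH-adjusted p = 0.0206). The type II cadherins CDH12, CDH18, CDH6 and CDH8 were found in M2. CDH12 was 0 TPM in all 3 M1 libraries and 9.09, 13.7 and 10.6 TPM in M2, at least 891-fold higher in M2 at the 3-count floor (edgeR BH-adjusted p = 0.000228). CDH18 was 0, 0 and 0.01 TPM in M1 and 5.85, 2.4 and 0.7 TPM in M2, and CDH6 was 0.06, 0.02 and 0.03 TPM in M1 and 2.85, 1.52 and 0.09 TPM in M2. CDH18, CDH12 and CDH6 lie on 1 stretch of chromosome 5 (hg38, 19472951 to 31329146). The 3 genes between them, PRDM9, CDH10 and CDH9, were at or under 0.12 TPM in all 6 libraries and too low to be tested. CDH8 (0.0733 ± 0.0643 TPM in M1 and 2.03 ± 1.32 in M2), on another chromosome, was also higher in M2.

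In the TGF-beta and BMP pathway, ligands bind paired receptor kinases that activate SMAD factors, and secreted antagonists trap the ligands. Of 50 genes tested (of 57), 22 were higher in M1 (44.0%, against 21.3% of all genes) and 11 in M2 (22.0%, near the 20.7% of all genes). Of these 33 calls, 21 were made without M1 replicate 2 and 18 without M1 replicate 3 or without M2 replicate 3. Ligands lay on the M1 side, with 7 of 12 higher in M1 and 1 higher in M2. INHBA, the subunit of activin A, was 27.2, 145 and 225 TPM in M1 and 0, 0.03 and 0.07 TPM in M2 (log2 fold -11.74 ± 0.97 SE, edgeR BH-adjusted p = 0.000232). BMP2 was 18.4, 78.4 and 66.9 TPM in M1 and 0.27, 0.07 and 0.24 TPM in M2 (log2 fold -8.01 ± 0.79 SE, edgeR BH-adjusted p = 0.000457), and TGFB2 was 102 ± 37.1 TPM in M1 and 8.33 ± 5.26 in M2. TGFB1 was not called (46.2 ± 5.38 TPM in M1 and 38.1 ± 12.7 in M2). The BMP antagonist GREM1 was 679.8, 1793 and 1721 TPM in M1 and 0.09, 0.01 and 0.15 TPM in M2 (log2 fold -14.23 ± 0.84 SE, edgeR BH-adjusted p = 6.39e-05), with no overlap. The antagonists FST, which binds activin (14.7 ± 14.7 TPM in M1 and 0.0133 ± 0.0231 in M2), and CHRDL1 (5.24 ± 0.762 TPM in M1 and 0.00333 ± 0.00577 in M2) were higher in M1. Noggin (NOG), another BMP antagonist, was the exception, at 0.05, 0.38 and 0.47 TPM in M1 and 6.25, 7.34 and 7.64 TPM in M2 (log2 fold 4.68 ± 0.64 SE, edgeR BH-adjusted p = 0.00147).

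Receptors and SMADs were called in each direction. The type I receptor TGFBR1 was 44.5 ± 12.2 TPM in M1 and 12.9 ± 3.47 in M2 and the type II receptor TGFBR2 was 39.7 ± 14.9 TPM in M1 and 84.4 ± 61.3 in M2, called in opposite directions, for TGFBR2 under 8 of 18 alternatives. SMAD2 (92.4 ± 9.04 TPM in M1 and 38.7 ± 11 in M2) and SMAD3 (44.5 ± 12.6 TPM in M1 and 25.8 ± 1.27 in M2), which carry TGF-beta signals, were higher in M1, and SMAD9 (0.413 ± 0.205 TPM in M1 and 3.11 ± 1.76 in M2) and SMAD1 (27 ± 36 TPM in M1 and 85.1 ± 63.3 in M2), which carry BMP signals, were higher in M2. SMAD1 in M1 stood at 7.55, 4.9 and 68.61 TPM, so its M1 mean rests on replicate 3. Common target genes did not move together. TGFBI was higher in M2 as given above (under 7 of 18 alternatives), PMEPA1 was higher in M1 (324 ± 140.1 TPM in M1 and 33.1 ± 17.2 in M2), and the BMP targets ID1 (73.2 ± 20.2 TPM in M1 and 192 ± 70.7 in M2) and ID3 (71.3 ± 16.2 TPM in M1 and 203 ± 121 in M2) were higher in M2. ID3 libraries overlapped between the clones, and its call held under 7 of 18 alternatives.

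WNT ligands signal through Frizzled receptors to beta-catenin or, for WNT5A with the receptor ROR2, through a route without it. Of 39 WNT genes tested (of 53), 17 were higher in M1 (43.59%, against 21.3% of all genes) and 11 in M2 (28.21%, against 20.7%). WNT5A was 474, 515 and 406 TPM in M1 and 7.8, 2.48 and 3.02 TPM in M2 (log2 fold -6.47 ± 0.48 SE, edgeR BH-adjusted p = 0.000156). WNT5A in M1 was also far above E and Parental (5.79 and 9.7 TPM). WNT5B (13.2 ± 2.09 TPM in M1 and 0.0633 ± 0.0777 in M2) and ROR2 (8.46, 6.24 and 8.39 TPM in M1 and 0.01, 0.02 and 0.02 TPM in M2; edgeR BH-adjusted p = 5.84e-05) followed the same direction. ROR1, the paralog of ROR2, was 1.4, 1.12 and 0.22 TPM in M1 and 10.3, 12.5 and 5.46 TPM in M2 (edgeR BH-adjusted p = 0.000474). WNT10B (0.15 ± 0.0624 TPM in M1 and 3.91 ± 0.853 in M2) was the single ligand of 9 tested that was higher in M2. The secreted inhibitors DKK1 (445 ± 176 TPM in M1 and 11.2 ± 14.1 in M2), SFRP1 (8.8 ± 3.8 TPM in M1 and 0.02 ± 0.0173 in M2) and SFRP2 (2.74 ± 0.435 TPM in M1 and 0.00667 ± 0.0115 in M2) were higher in M1, and DKK3 was 9.65, 6.1 and 4.92 TPM in M1 and 166, 143 and 63.6 TPM in M2 (log2 fold 4.14 ± 0.26 SE, edgeR BH-adjusted p = 7.39e-05). Of the 4 transcription factors of the beta-catenin route, LEF1 (8.02 ± 0.779 TPM in M1 and 21.3 ± 3.99 in M2) was higher in M2 and TCF7L1 (0.697 ± 0.168 TPM in M1 and 0.203 ± 0.0751 in M2) higher in M1. Of its 7 targets tested, AXIN2 (0.137 ± 0.0513 TPM in M1 and 1.52 ± 0.741 in M2), NKD2 (1.12 ± 0.663 TPM in M1 and 4.98 ± 1.22 in M2) and ZNRF3 (2.39 ± 0.0306 TPM in M1 and 4.49 ± 1 in M2) were higher in M2 and LGR6 (4.33 ± 1.23 TPM in M1 and 0.0333 ± 0.0289 in M2) higher in M1. CTNNB1, which encodes beta-catenin, was not called (107 ± 11.9 TPM in M1 and 109 ± 26.8 in M2).

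Growth factor receptors and ligands were called in either direction, 17 of 47 higher in M1 and 11 higher in M2. These shares were 36.17% against 21.3% of all genes and 23.4% against 20.7%, so the M2 share was near that of all genes. PDGFA, a ligand of the PDGF receptors named above, was 1.51, 2.77 and 3.77 TPM in M1 and 36.9, 37.7 and 46.2 TPM in M2 (log2 fold 4.10 ± 0.29 SE, edgeR BH-adjusted p = 0.000119). The other ligands PDGFB (1.26 ± 1.19 TPM in M1 and 0.227 ± 0.205 in M2, under 9 of 18 alternatives) and PDGFD (3.01 ± 1.46 TPM in M1 and 0.00667 ± 0.0115 in M2) were higher in M1. FGFR1 was 22.1, 34.6 and 46.7 TPM in M1 and 112, 85.4 and 136 TPM in M2 (log2 fold 1.55 ± 0.22 SE, edgeR BH-adjusted p = 0.00186), and MET, the receptor of hepatocyte growth factor, was 24.4 ± 7.42 TPM in M1 and 60.8 ± 8.72 in M2. FGF2 was 6.67, 12.2 and 11.6 TPM in M1 and 41.2, 142 and 18.9 TPM in M2, with M2 replicate 2 far above the others (edgeR BH-adjusted p = 0.0406). EGFR was not called (58.7 ± 13.2 TPM in M1 and 45.4 ± 15 in M2), ERBB2 was 8.17 ± 1.05 TPM in M1 and 16.7 ± 4.6 in M2, and the EGFR ligand amphiregulin (AREG) was 976, 724 and 1496 TPM in M1 and 14.3, 116 and 10.1 TPM in M2 (log2 fold -4.64 ± 1.06 SE, edgeR BH-adjusted p = 0.0128). IGF1R (76.1 ± 29.9 TPM in M1 and 16.3 ± 10.5 in M2), VEGFA (264 ± 44.6 TPM in M1 and 74.3 ± 59.5 in M2), VEGFC (58 ± 6.93 TPM in M1 and 5.5 ± 5.28 in M2) and the AXL ligand GAS6 (75 ± 11.9 TPM in M1 and 17 ± 7.91 in M2) were higher in M1.

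Inflammatory cytokines and chemokines made up one of the clearest differences, with 19 of 32 tested genes (of 40) higher in M1, 3 higher in M2 and a median log2 fold of -4.71. Their summed level was 5022 to 8358 TPM in M1 and 685.0 to 915.5 TPM in M2, while E lay at 850.9 to 953.5 TPM. Much of it came from CXC chemokines of a cluster of 9 genes on chromosome 4 (hg38, 73740506 to 74099293), several of which are known to attract neutrophils. In map order, 6 of the 9 were called, all of them higher in M1. The bases just before the annotated starts of 6 of these genes are shown because these share a short motif. Of those 6, CXCL2 was not called, and PF4, which was called, is not shown. Each run covers 120 bases upstream of the start on the gene's own strand, from RefSeq on GRCh38.p14, with the motif GGAATTTCC in capitals.
CXCL8: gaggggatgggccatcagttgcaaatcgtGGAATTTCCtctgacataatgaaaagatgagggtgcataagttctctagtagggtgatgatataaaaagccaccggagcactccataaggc
CXCL6: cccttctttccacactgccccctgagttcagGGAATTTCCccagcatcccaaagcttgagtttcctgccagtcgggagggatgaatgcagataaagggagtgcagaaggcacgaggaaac
CXCL1: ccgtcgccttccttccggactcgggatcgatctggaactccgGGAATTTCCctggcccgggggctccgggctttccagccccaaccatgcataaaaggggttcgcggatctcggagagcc
CXCL5: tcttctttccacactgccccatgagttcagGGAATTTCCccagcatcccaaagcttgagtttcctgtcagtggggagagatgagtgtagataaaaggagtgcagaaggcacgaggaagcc
CXCL3: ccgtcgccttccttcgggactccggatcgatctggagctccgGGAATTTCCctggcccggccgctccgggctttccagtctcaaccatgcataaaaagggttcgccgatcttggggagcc
CXCL2: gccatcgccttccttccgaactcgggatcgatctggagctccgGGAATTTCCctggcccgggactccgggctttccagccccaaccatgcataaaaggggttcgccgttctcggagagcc
These lie at chr4:73740449-73740568 and chr4:73836558-73836677 and chr4:73869273-73869392 on the plus strand and at chr4:73998678-73998797 and chr4:74038690-74038809 and chr4:74099196-74099315 on the minus strand. GGAATTTCC has the form known for binding sites of NF-kB, a factor that drives inflammatory genes. On either strand it was found in the 300-base window (250 before to 50 after the start) of 6 of the 8 genes of the cluster with a RefSeq promoter and in 0.472% of all 27305 promoters. A match describes the letters and is no evidence that the site is bound. The motif was fixed by hand and not found by a search. The runs of CXCL1, CXCL2 and CXCL3, and those of CXCL5 and CXCL6, are alike in most letters. Their matches are therefore not independent, and these shares are no test.

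CXCL1 was 2085, 2384 and 2419 TPM in M1 and 0.52, 0.52 and 0.33 TPM in M2 (log2 fold -12.30 ± 0.36 SE, edgeR BH-adjusted p = 1.49e-05). CXCL8 was 1311, 2436 and 2564 TPM in M1 and 50.7, 166 and 5.06 TPM in M2 (log2 fold -5.34 ± 1.20 SE, edgeR BH-adjusted p = 0.0117). M2 kept some CXCL8, with the highest value in replicate 2, and almost no CXCL1. CXCL6 was 405, 205 and 269 TPM in M1 and 0 TPM in all 3 M2 libraries, at least 11950-fold higher in M1, and PF4, which lies between CXCL1 and CXCL5, was 55 ± 12 TPM in M1 and 0 ± 0 in M2 (at least 620.4-fold). CXCL3 was 282, 438 and 676 TPM in M1 and 6.84, 20.2 and 2.37 TPM in M2, and CXCL5 was under 1 TPM in all libraries. CXCL2 was 114, 90.5 and 145 TPM in M1 and 12.4, 50.7 and 1.84 TPM in M2 and was not called (edgeR BH-adjusted p = 0.0663), although its libraries did not overlap. Its promoter is among those shown above with the motif. The part of the motif in these levels was not tested.

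**Figure D4:**
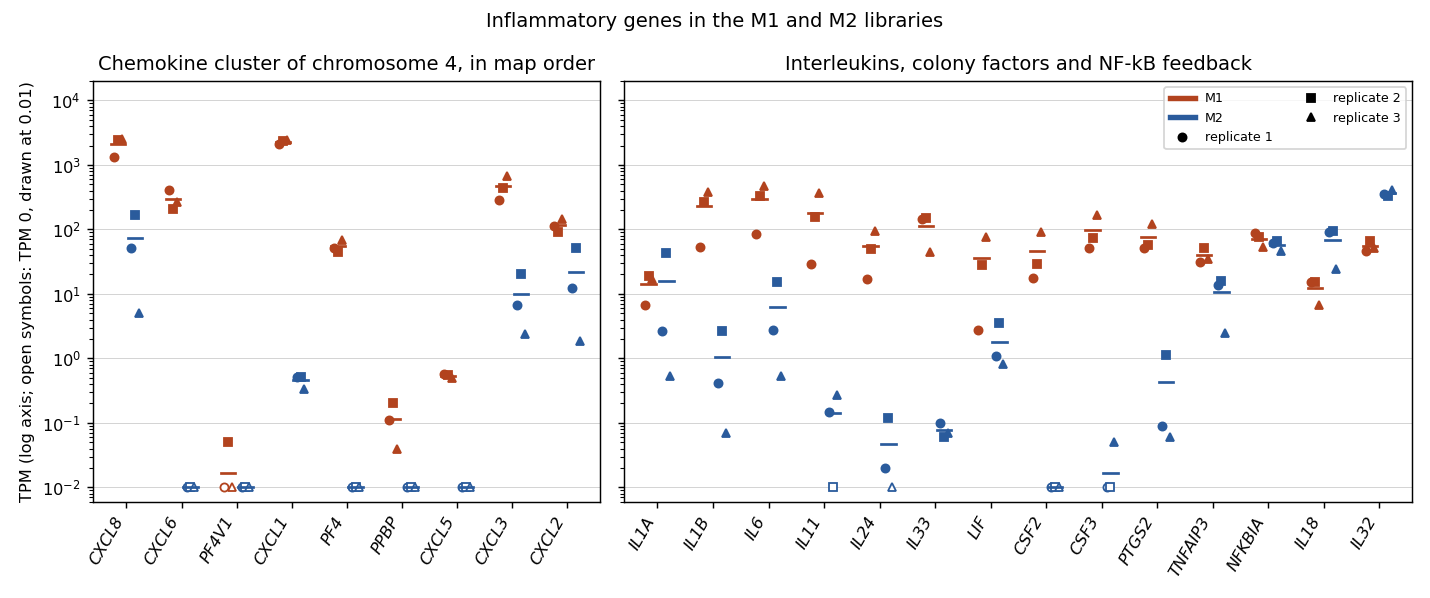
TPM on a log axis in each M1 (red) and M2 (blue) library for the 9 genes of the chromosome 4 chemokine cluster in map order (left) and for other cytokines and NF-kB target genes (right), with short lines at the means. The M1 mean lies above the M2 mean from IL1B to TNFAIP3, M2 replicate 2 is the highest M2 library in CXCL8, IL1A, IL1B and IL6, open symbols stand for TPM 0, and IL18 and IL32 are higher in M2.

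Interleukins varied among the M1 libraries as well as between clones. IL6 was 85.6, 324 and 465 TPM in M1 and 2.8, 15.2 and 0.53 TPM in M2 (log2 fold -5.94 ± 1.40 SE, edgeR BH-adjusted p = 0.0143), and IL1B was 54.2, 267 and 383 TPM in M1 and 0.42, 2.66 and 0.07 TPM in M2 (log2 fold -8.24 ± 1.46 SE, edgeR BH-adjusted p = 0.00445). IL11 was 29.5, 154 and 365 TPM in M1 and 0.15, 0 and 0.27 TPM in M2 (log2 fold -10.22 ± 1.00 SE, edgeR BH-adjusted p = 0.000445). In each of these 3 the M1 replicate 1 value was the lowest of its clone and still above all M2 libraries. IL24 (54.5 ± 39.7 TPM in M1 and 0.0467 ± 0.0643 in M2), the alarmin IL33 (113 ± 59.7 TPM in M1 and 0.0767 ± 0.0208 in M2), the colony-stimulating factors CSF2 (46 ± 39.6 TPM in M1 and 0 ± 0 in M2) and CSF3 (97.4 ± 62.7 TPM in M1 and 0.0167 ± 0.0289 in M2) and the prostaglandin synthase PTGS2 (77.2 ± 39.7 TPM in M1 and 0.423 ± 0.604 in M2) were higher in M1. For CSF2, with no count in M2, the difference was at least 898-fold. IL1A was not called, at 6.65, 19.1 and 16.8 TPM in M1 and 2.64, 43.8 and 0.53 TPM in M2. LIF was 2.71, 27.9 and 76.1 TPM in M1 and 1.07, 3.55 and 0.82 TPM in M2, called with overlapping libraries and under 8 of 18 alternatives (edgeR BH-adjusted p = 0.0395).

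Other inflammatory genes did not follow. NFKBIA, the NF-kB inhibitor that NF-kB itself induces, was not called (72.2 ± 16.4 TPM in M1 and 57.9 ± 10.7 in M2), nor was the adhesion gene ICAM1 (22 ± 4.62 TPM in M1 and 15.8 ± 4.03 in M2), while TNFAIP3, another feedback inhibitor, was higher in M1 (39.5 ± 10.8 TPM in M1 and 10.8 ± 7.27 in M2). IL32 was 46.9, 65.2 and 52.4 TPM in M1 and 349, 333 and 405 TPM in M2 (log2 fold 2.84 ± 0.23 SE, edgeR BH-adjusted p = 0.000215) and IL18 was 15.2, 15.1 and 6.84 TPM in M1 and 90.6, 93.8 and 24.7 TPM in M2 (log2 fold 2.48 ± 0.24 SE, edgeR BH-adjusted p = 0.000401), each higher in M2 with no overlap. Markers of blood and endothelial cells were also looked at, since such cells make cytokines. Of 23 such markers, 6 could be tested, 4 higher in M1 and 1 in M2, and their summed level was 161.7 to 231.0 TPM in M1 and 17.1 to 43.0 TPM in M2. Nearly all of that sum was CD68, a lysosomal protein also found outside macrophages (193 ± 36.3 TPM in M1 and 26 ± 13.4 in M2). The other markers called higher in M1 were the myeloid receptor CSF1R (1.14 ± 0.223 TPM in M1 and 0.0167 ± 0.0208 in M2), the endothelial PECAM1 (0.797 ± 0.0351 TPM in M1 and 0.203 ± 0.153 in M2) and the erythroid globin HBA1. HBA1 was 0.99, 1.08 and 0.99 TPM in M1 and 0 TPM in all 3 M2 libraries (edgeR BH-adjusted p = 0.00563), while its near-identical copy HBA2 had 0 counts over the M1 libraries and 5 over the M2 libraries. The endothelial receptor KDR (0.0167 ± 0.0115 TPM in M1 and 0.327 ± 0.2 in M2) was higher in M2. Apart from CD68, the called markers were low even in the clone where they were higher. With a mean of at least 1 CPM as the filter, 2 markers were called higher in M1 and 0 in M2. The myeloid gene CD33, outside the list, was 0.0233 ± 0.0208 TPM in M1 and 11.1 ± 1.48 in M2 (edgeR BH-adjusted p = 3.15e-05). The defining markers CD3D, CD3E, CD2 and HBB had no count in any of the 6 libraries, and the pan-leukocyte gene PTPRC had 6 counts over the M1 libraries and 5 over the M2 libraries. The part of these markers in the cytokine result was not tested.

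Interferon and antigen presentation genes were called no more often than genes in general, but every antigen presentation call was higher in M1. Of 28 interferon response genes tested, 5 were higher in M2 and 4 in M1 (32.14%). That split changed with the setting. It was 5 higher in M2 and 2 in M1 without M1 replicate 1, and 3 and 6 with a mean of at least 1 CPM as the filter. IFITM3 (211 ± 43.5 TPM in M1 and 582 ± 137 in M2) and IFITM1 (29.3 ± 2.09 TPM in M1 and 81 ± 9.5 in M2), membrane proteins that block virus entry, were higher in M2, and IFI27 (145 ± 10.5 TPM in M1 and 8.51 ± 4.72 in M2) and OAS1 (1.7 ± 0.251 TPM in M1 and 0.0233 ± 0.0321 in M2) were higher in M1. Of 18 antigen presentation genes, 7 were higher in M1 (38.89%, against 21.3% of all genes) and 0 in M2 (against 20.7%). Their summed level was 11760 to 17540 TPM in M1 and 6878 to 8717 TPM in M2. HLA-B was 4155, 9695 and 9175 TPM in M1 and 2582, 2685 and 4100.0 TPM in M2 (edgeR BH-adjusted p = 0.0163), and the clones did not overlap. HLA-F (29.9 ± 8.34 TPM in M1 and 1.58 ± 0.708 in M2) and the peptide-loading gene TAPBP (60.3 ± 12.9 TPM in M1 and 22.2 ± 4.84 in M2) were higher in M1. Without M1 replicate 3 or M2 replicate 3, 4 antigen presentation genes were called. HLA class I genes are near-identical and vary between people, so the split of reads among them is uncertain.

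Several programs held fewer calls than genes in general. Of 38 proliferation genes tested, 3 were higher in M2 and 4 in M1 (18.42% called). That split changed with the libraries and the model. Without M2 replicate 1 there were 13 calls, 1 higher in M2 and 12 in M1, and with the replicate number as a block 3 and 9. There were 3 calls without M1 replicate 1 or M2 replicate 3 and 2 without M1 replicate 3. MKI67, a protein of dividing cells, was not called (56.1 ± 21.4 TPM in M1 and 52.3 ± 26.9 in M2), nor was any of the 9 DNA replication genes. PCNA, the clamp of the replication fork, stood at 234, 181 and 152 TPM in M1 and 229.8, 39.5 and 129 TPM in M2, and M2 replicate 2 was the lowest library for all 6 MCM helicase genes too. The mitotic kinase AURKB was an exception (106 ± 20.7 TPM in M1 and 19.6 ± 8.9 in M2; edgeR BH-adjusted p = 0.00148). Hippo pathway genes and YAP targets gave 2 genes higher in M2 and 5 in M1 of 30 with a median log2 fold of -0.01, and 4 calls without M1 replicate 2. YAP1 was not called (49.6 ± 3.24 TPM in M1 and 66.7 ± 25.2 in M2), while its paralog WWTR1, also known as TAZ, was 31.7, 28.1 and 24.8 TPM in M1 and 4.24, 5.52 and 6.67 TPM in M2 (log2 fold -2.59 ± 0.25 SE, edgeR BH-adjusted p = 0.000389). The target CCN1 was 77.1, 459 and 794 TPM in M1 and 83.8, 29.2 and 50.7 TPM in M2, called with overlapping libraries, and CCN2 was not called (31.7 ± 26 TPM in M1 and 36.2 ± 41.1 in M2).

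Cholesterol synthesis gave 4 genes higher in M2 and 3 in M1 of 23, among them squalene epoxidase (SQLE, 13.1 ± 1.8 TPM in M1 and 40.2 ± 17.9 in M2) higher in M2. The split was 4 higher in M2 and 2 in M1 without M1 replicate 3, and 3 and 7 without M2 replicate 1. In hypoxia and glycolysis, 10 of 28 were higher in M1 and 2 in M2 (42.86% called, near the 41.9% of all genes), and 7 were called without M1 replicate 3 or M2 replicate 3. Adrenomedullin (ADM, 123 ± 3.37 TPM in M1 and 5.45 ± 2.75 in M2) and the carbonic anhydrase CA9 (36.1 ± 12 TPM in M1 and 1.09 ± 0.822 in M2) were higher in M1, and the oxygen sensor EGLN3 (0.903 ± 0.573 TPM in M1 and 11.4 ± 5.84 in M2) was higher in M2. Among contractile and caveolar genes, 9 of 28 were higher in M1 and 4 in M2 (46.43% called). The light chain MYL9 (46.5 ± 7.74 TPM in M1 and 6.39 ± 4.78 in M2), the heavy chain MYH10 (19.5 ± 10.7 TPM in M1 and 0.7 ± 0.55 in M2) and filamin FLNA (1543 ± 306 TPM in M1 and 399 ± 110.4 in M2) were higher in M1. CAVIN2, a coat protein of caveolae, was 0 TPM in all 3 M1 libraries and 24.6, 14.5 and 4.82 TPM in M2, at least 1726-fold higher in M2. Caveolin CAV1 was not called (494 ± 60.8 TPM in M1 and 271 ± 165 in M2).

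HOX genes were called about as often as genes in general, and DNA methylation and Polycomb genes less often. Of 23 HOX genes tested (of 39), 8 were higher in M2 and 3 in M1 (47.83% called, near the 41.9% of all genes). Without M1 replicate 1, M1 replicate 3 or M2 replicate 3 the calls were 4 and 3, and with the log2 fold tested against 1 they were 3 and 3. HOXA11 was 5.49, 5.23 and 4.14 TPM in M1 and 0.04, 0.02 and 0.03 TPM in M2 and HOXC12 was 4.7, 4.03 and 3.25 TPM in M1 and 0.01, 0 and 0 TPM in M2, both higher in M1 (edgeR BH-adjusted p = 5.84e-05 and 6.97e-05). HOXC8 (2.24 ± 0.409 TPM in M1 and 6.95 ± 1.33 in M2) and HOXD8 (1.4 ± 0.35 TPM in M1 and 5.9 ± 0.299 in M2) were higher in M2. Other genes of the same clusters, such as HOXA10 (8.25 ± 0.864 TPM in M1 and 8.28 ± 1.61 in M2) and HOXC10 (50.6 ± 7.32 TPM in M1 and 36.5 ± 3.64 in M2), were not called. DNA methylation and Polycomb genes gave 4 calls higher in M2 and 2 higher in M1 of 21 (28.57% called). These were 0 without any single M1 replicate or M2 replicate 3 and 3 without M2 replicate 1, and the methyltransferase DNMT1 (121 ± 47.9 TPM in M1 and 80.4 ± 35.1 in M2) and the Polycomb enzyme EZH2 (23.3 ± 7.95 TPM in M1 and 29.3 ± 12.9 in M2) were not called. Of 15 neural genes tested, 8 were higher in M1 and 2 in M2. The adhesion molecule L1CAM was 95.4, 132 and 105 TPM in M1 and 0.17, 0.1 and 0.49 TPM in M2 (log2 fold -10.04 ± 0.40 SE, edgeR BH-adjusted p = 2.48e-05). The homeobox gene PAX6 (9.83 ± 1.35 TPM in M1 and 0.0133 ± 0.0231 in M2) and the neurofilament-like gene INA (14.3 ± 5.85 TPM in M1 and 0.00667 ± 0.00577 in M2) were higher in M1, and NRCAM (2.16 ± 0.261 TPM in M1 and 18.7 ± 4.88 in M2) was higher in M2. Of the breast lineage factors, 9 of 16 could be tested and only TP63 was called (2 factors without M2 replicate 1 or 2), and GATA3 (2.06 ± 0.194 TPM in M1 and 2.72 ± 1.45 in M2) and FOXA1 (0.777 ± 0.193 TPM in M1 and 1.61 ± 1.43 in M2) were low in each clone.

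The genes with the largest folds in M2 were led by cancer-testis genes, which are normally expressed in the male germ line and are often active in tumours. XAGE1A was 0 TPM in all 3 M1 libraries and 156, 178 and 205 TPM in M2, SPANXB1 was 0 TPM in all 3 M1 libraries and 496, 293 and 239.5 TPM in M2, and MAGEA2 was 0 TPM in all 3 M1 libraries and 57.4, 57.4 and 69.9 TPM in M2. With no count in M1 these were at least 2671-fold, 2479-fold and 4247-fold higher in M2. The highest mean in any other line was 0.117, 0.193 and 0.0367 TPM. From MAGEA3 to MAGEA6 on chromosome X (hg38, 152698752 to 152769747), all 8 protein-coding genes, members of the MAGEA and CSAG families, were called higher in M2. MAGEA12 was 0 TPM in all 3 M1 libraries and 45.5, 37.9 and 37.5 TPM in M2, MAGEA6 was 0 TPM in all 3 M1 libraries and 55.1, 42.5 and 63.3 TPM in M2, and CSAG1 was 0 TPM in all 3 M1 libraries and 42.4, 38.5 and 50.8 TPM in M2. No M1 library exceeded 0.02 TPM for any of the 8. Genes of this block and the XAGE1A and XAGE1B pair are near-identical copies, so the authors' counting may have split reads among them, and the block is surer than any member's own level.

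Promoters of the block are shown because its genes were on together and because 2 of them cannot be told apart there. Each run covers the 150 bases before the start on the gene's own strand, from RefSeq on GRCh38.p14, with CG dinucleotides, the sites of DNA methylation, in capitals.
MAGEA3: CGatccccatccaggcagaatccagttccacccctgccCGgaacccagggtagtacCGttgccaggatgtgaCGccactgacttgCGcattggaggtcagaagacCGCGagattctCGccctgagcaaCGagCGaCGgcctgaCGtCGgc
MAGEA6: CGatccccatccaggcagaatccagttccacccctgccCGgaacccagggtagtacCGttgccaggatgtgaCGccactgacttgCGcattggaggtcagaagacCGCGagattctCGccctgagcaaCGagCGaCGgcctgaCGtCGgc
MAGEA12: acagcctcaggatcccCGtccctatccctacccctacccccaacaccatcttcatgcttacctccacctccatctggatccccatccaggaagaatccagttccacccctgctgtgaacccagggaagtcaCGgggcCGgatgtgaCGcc
They lie at chrX:152698644-152698793 (plus strand), chrX:152769690-152769839 (minus strand) and chrX:152733607-152733756 (plus strand). Over the full 300-base window MAGEA3 and MAGEA6 were identical at all 300 bases. The windows held 19 CG in MAGEA3 and in MAGEA6 and 9 in MAGEA12, against a median of 26 over all protein-coding genes tested that had a promoter. DNA methylation is not analysed here.

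Other genes with large folds in M2 had no list in common. The homeobox genes PKNOX2 (0, 0.03 and 0.01 TPM in M1 and 172, 154 and 211 TPM in M2; edgeR BH-adjusted p = 3.09e-05) and NKX2-5 (0 ± 0 TPM in M1 and 25.4 ± 6.29 in M2), a factor of heart development, the adhesion receptor ADGRF5 (0.00333 ± 0.00577 TPM in M1 and 50.5 ± 10.5 in M2) and the enteropeptidase gene TMPRSS15 (0.01 ± 0.01 TPM in M1 and 184 ± 47.2 in M2) were each under 0.2 TPM on average in M1, E and Parental. Among the largest folds in M1, beyond genes named above, were RFLNA (32.8 ± 10.6 TPM in M1 and 0 ± 0 in M2), SH2D2A (26.6 ± 19.7 TPM in M1 and 0 ± 0 in M2), the lysosomal protease CTSF (27.3 ± 4.25 TPM in M1 and 0 ± 0 in M2) and the ubiquitin ligase RNF144A (34.8 ± 12.9 TPM in M1 and 0.00333 ± 0.00577 in M2). CTSF was present in E (8.63 TPM) and Parental (13.2 TPM) and had no count in M2.

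By the difference in TPM, beyond genes named above, the largest in M2 were genes of protein synthesis. NPM1, a chaperone of ribosome assembly, was 13130.0 ± 3687 TPM in M1 and 28340.0 ± 10480.0 in M2 (edgeR BH-adjusted p = 0.000854), and the elongation factor EEF1A1 was 8894 ± 464 TPM in M1 and 13540.0 ± 2169 in M2. Of the 10 largest, 7 encode ribosomal proteins, among them RPS25 (2699 ± 180.2 TPM in M1 and 6208 ± 288 in M2) and RPS20 (628 ± 25.4 TPM in M1 and 2494 ± 255 in M2), and NDUFA4 (1593 ± 291 TPM in M1 and 3246 ± 226 in M2) encodes a protein of the mitochondrial respiratory chain. In M1 the largest included MT-CO2 of the mitochondrial genome (8236 ± 1737 TPM in M1 and 4333 ± 1487 in M2; edgeR BH-adjusted p = 0.0432), the ribosomal protein genes RPS6 on chromosome 9 (6130.0 ± 756 TPM in M1 and 2677 ± 444 in M2) and RPL26 on chromosome 17 (5646 ± 694 TPM in M1 and 3098 ± 534 in M2), the initiation factor EIF4A1 (2476 ± 597.5 TPM in M1 and 850.7 ± 332.2 in M2) and NAMPT, an enzyme of NAD synthesis (2653 ± 1276 TPM in M1 and 679.6 ± 291 in M2). Ribosomal protein genes, NPM1 and EEF1A1 have near-identical pseudogenes, so their levels are uncertain.

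Genes switched off in one clone were then counted, as protein-coding genes with a mean of 0.05 TPM or less in one clone and 1 TPM or more in the other. Of 12137 protein-coding genes at 1 TPM or more in either clone, 314 were off in M2 and 144 off in M1. The groups differed in what the other 5 lines did. Of the 314 genes off in M2, 179 were at 1 TPM or more in all 5 other lines and 8 were off in all 5. Of the 144 genes off in M1, 1 was on in all 5 other lines and 75 were off in all 5. Most genes off in M2 were thus on in the rest of the series, and most genes off in M1 were off there too. Among 1544 protein-coding genes called with an absolute log2 fold of at least 3, M2 was farther than M1 from the median of the other 5 lines for 1158. These made up 88.95% of the 516 genes higher in M2 and 68.0% of the 1028 genes higher in M1. These counts describe levels, with no test.

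Genes that were off sometimes followed one another along a chromosome. Only protein-coding genes at a mean of 1 TPM or more in either clone were put in order, so other genes can lie within a run. The run with the most genes off in M2 held the zinc finger genes ZNF256, ZNF606, ZNF135 and ZSCAN18 on chromosome 19 (hg38, 57940833 to 58118427), and ZNF43, ZNF724 and ZNF91 formed another (21804949 to 23395560). Promoters of off genes held fewer CG than promoters in general. The median count in the 300-base window was 22 for the 228 genes off in M2 with a RefSeq promoter and 17 for the 103 off in M1, against 26 over 10599 tested protein-coding genes. Windows with under 5 CG made up 14.47%, 22.33% and 5.623% of these.

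Folds were not spread evenly over the genome. The median log2 fold ran from -0.61 on chromosome 13 (297 genes tested, 127 higher in M1 and 29 in M2) and -0.45 on chromosome 20 to 0.37 on chromosome 3 and 0.47 on chromosome 21. Within chromosomes it changed over shorter distances. In 268 bins of 10 Mb with at least 20 genes tested, the quartiles of the medians were -0.24 and 0.33. The first 10 Mb of chromosome 17 held 179 genes tested, 132 higher in M1 and 9 in M2, with a median of -1.20. The bin of chromosome 13 from 110 Mb, which holds COL4A1 and COL4A2, held 27 genes higher in M1 and 0 in M2 of 34 (median -1.45). On the short arm of chromosome 9, the bins from 0 and 10 Mb had medians of -1.33 and -1.29. The bin of chromosome X from 150 Mb had 50 of 79 higher in M1 and 10 in M2 (median -1.40), although it holds the MAGEA and CSAG block that was higher in M2. In the bin of chromosome 4 from 50 Mb, 24 of 31 were higher in M2 and 1 in M1 (median 1.45). The bin of chromosome 5 from 10 Mb, next to and partly holding the cadherin stretch, had 17 of 23 higher in M2 and 1 in M1 (median 1.59). The bin of chromosome 1 from 170 Mb had 30 of 38 higher in M2 (median 1.29). DNA copy number is not analysed here, so differences in gene dosage between the clones and in expression per copy cannot be told apart.

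**Figure D5:**
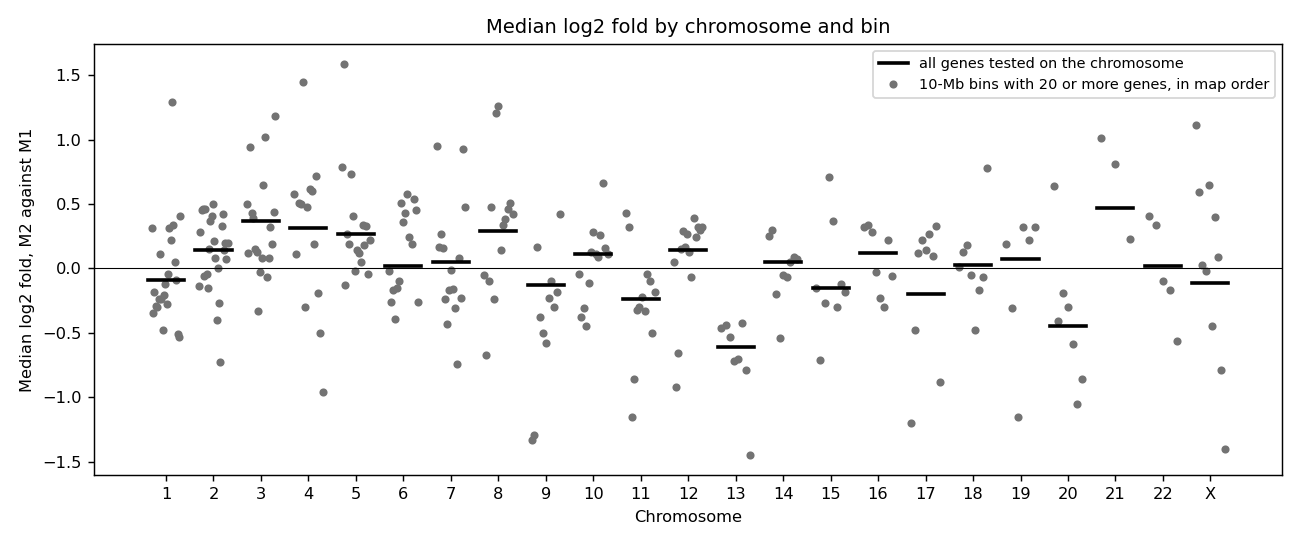
Median log2 fold, M2 against M1, of all genes tested on each chromosome (black bars) and of 10-Mb bins with 20 or more genes in map order (grey points). Chromosomes 13 and 20 lie lowest, at -0.61 and -0.45, chromosomes 3 and 21 highest, at 0.37 and 0.47, and bins reach -1.45 and 1.59.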

How the data were processed

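Single-end RNA-seq of poly(A) RNA was deposited for 21 libraries of 7 lines, and the 3 libraries of M2 were compared with the 3 of M1, grouped by their labels. The authors' tables give expected counts per gene that RSEM 1.3.2 estimated after alignment with STAR 2.7.2b to hg38, per the submitters' processing notes, with bcl2fastq 2.20.0.422 and cutadapt 2.4 also named there. The TPM values and the effective lengths in bases are columns of the same deposited tables, per the file headers. The annotation release, the alignment settings and whether strand was used are not given in the sources used here. An expected count can split a read among near-identical genes, so single members of such families are uncertain.

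Expected counts were rounded and tested with edgeR 4.0.16 (R 4.3.3) by its quasi-likelihood F-test with TMM scaling, filterByExpr and a term for replicate 3 against replicates 1 and 2. With 6 libraries the fit had 3 residual degrees of freedom. Benjamini-Hochberg adjustment ran over all 16307 genes tested of 60617, with a threshold of 0.05. Where a clone had no count, a lower bound of the fold was taken at 3 counts over its libraries. DESeq2 1.42.0, limma 3.58.1 and other alternatives, 18 in all, are given in the closing section. Tables were handled in Python 3.11.15 (numpy 2.4.6, pandas 2.3.3) and drawn with matplotlib 3.10.9. Gene symbols were found for 60261 of 60617 identifiers, and positions for 58483 came from GENCODE 29 (hg38). Depth was 25039378 to 47714099 expected counts a library, and replicates differed beyond counting noise.

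The 27 lists (810 genes) and the comparison itself were chosen with earlier results of these data known. Named genes are members of these lists, the 10 largest folds in each direction among called genes with non-overlapping libraries and a mean of at least 10 TPM, and the 10 largest differences in TPM among such genes at any level. The chemokine, metalloproteinase, cadherin and MAGEA gene clusters, the genes off in one clone, the comparison with the other lines and the chromosome bins were added after their values were seen. Some list members are counted but not reported here by name.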

Additional observations from a re-analysis of the deposited data

How the results depend on the processing

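No gene named here or in a list reversed its direction under any of the 18 alternatives that tested it, and 1950 of the 6836 called genes (28.53%) were called with the same sign in all of them. With the log2 fold tested against 1, 3130 genes were called (1329 higher in M2, 1801 higher in M1), and list counts were 1 for RUNX and CBFB, 10 for collagen processing, 11 for matrix proteases, 5 for cadherins, 15 for TGF-beta and BMP, 3 for Hippo, 2 for antigen presentation, 3 for cholesterol, 2 for proliferation, 4 for hypoxia, 6 for HOX and 0 for DNA methylation. With limma on log2(TPM + 1), 2144 genes were higher in M2, with 1 RUNX or CBFB gene, 6 HOX, 3 DNA methylation and 1 blood marker called. With log2(TPM + 0.1) these were 2177, 1, 7, 3 and 1, and 11 epithelial genes were called. On replicates 1 and 2 only, 2093 genes were higher in M2, and 1 RUNX or CBFB gene, 18 TGF-beta, 4 antigen presentation, 3 proliferation, 7 hypoxia, 7 HOX and 0 DNA methylation genes were called. Without the batch term 1, 4, 3 and 2 were called of RUNX and CBFB, antigen presentation, proliferation and DNA methylation. Without a filter on low counts 4 breast lineage, 12 Hippo, 15 interferon, 11 cholesterol, 18 proliferation (4 higher in M2, 14 in M1) and 9 blood genes were called, and with a mean of at least 1 CPM 7 HOX and 2 blood genes. DESeq2 called 2 breast lineage and 11 proliferation genes, limma-voom 2 breast lineage genes, and the fit with the EM and M clones together 2 breast lineage, 11 Hippo and 12 proliferation genes. The cause of these shifts was not tested.

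With the replicate number as a block, 3074 genes were called higher in M2 and 3312 higher in M1, with 2 breast lineage and 12 proliferation genes. The numbers were not taken as pairs, since the deviations of same-numbered libraries correlated at 0.275, 0.064 and 0.484, not all of them over 0.1. The third of these is replicate 3, which has the shorter effective length in each clone.

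Leaving out each library in turn gave 4550.0 to 7885 calls, 2088 to 3902 of them higher in M2. List counts ran from 1 to 3 for RUNX and CBFB, 1 to 2 for breast lineage, 18 to 38 for TGF-beta and BMP, 4 to 9 for Hippo, 4 to 9 for antigen presentation, 2 to 13 for proliferation, 7 to 14 for hypoxia, 7 to 10 for HOX and 0 to 7 for DNA methylation. With 3 libraries a clone and 25039378 counts in M2 replicate 2, small folds and low genes were the least certain.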

Other observations

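Ribosomal protein genes, chosen after their values were seen because several were among the largest differences in TPM, were mostly higher in M2. Of 81 cytosolic ribosomal protein genes tested (of 83), 47 were called higher in M2 and 4 higher in M1, with a median log2 fold of 0.58 against 0.03 over all genes tested (edgeR, BH-adjusted). Together they made up 19.2%, 18.9% and 24.6% of TPM in M1 and 23.7%, 26.6% and 31.3% in M2. Replicate 3, with the shorter effective lengths, was the highest library in each clone. M2 was higher than M1 within replicate 3 and within replicates 1 and 2, and the clones overlapped only across that split, where M1 replicate 3 lay above M2 replicate 1. Many of these genes have near-identical pseudogenes, and the share of reads that fell to those was not tested. Among the protein-coding genes of the mitochondrial genome, 12 were tested, 0 were called higher in M2 and 1 higher in M1.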
